A study of Mus musculus with 6 samples.

Results

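The LC3 and GABARAP family was followed through RNA sequencing of the proximal incisor. Its members were taken by name from the count table, where 5 of 19060 genes belong to it: Map1lc3a and Map1lc3b, which encode LC3 proteins, and Gabarap, Gabarapl1 and Gabarapl2, which encode GABARAP proteins. The samples were proximal ends of incisors from control and mutant (Gli1CreER;Fgfr1fl/fl) mice, with 3 samples of each genotype. Wild type is the genotype on the control labels, whereas the paper used Fgfr1fl/fl mice as controls in other experiments with this mutant. Whether the sequenced control mice carried loxP-flanked Fgfr1 alleles was not tested. Tamoxifen was given at 1 month of age, and the tissue was collected 1 week later. Cre was driven from Gli1, so recombination was limited to Gli1+ cells and their progeny, whereas RNA came from the whole proximal tissue. In such bulk RNA, fewer cells of a type and less RNA per cell cannot be told apart.

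LC3 and GABARAP proteins are small ubiquitin-like proteins, the mammalian counterparts of yeast Atg8. ATG4 proteases cut each of them behind a glycine near the C-terminus, ATG7 activates the exposed glycine, and ATG3, helped by the ATG12-ATG5-ATG16L1 complex, joins it to a lipid of the growing autophagosome membrane. There they bring in cargo receptors, and lipid-bound LC3 is the usual protein marker of autophagosomes. RNA levels measure none of these protein steps. The incisor of the mouse grows throughout life from stem cells at its proximal end, and autophagy is a route by which such cells remove proteins and organelles.

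The 5 genes lie on the plus strand of GRCm38: Map1lc3a at chr2:155276297-155278073, Map1lc3b at chr8:121590361-121598760, Gabarap at chr11:69991143-69994951, Gabarapl1 at chr6:129533160-129542346, and Gabarapl2 at chr8:111940703-111953612. The ends of the coding sequences are shown because they carry the site where the family is processed. Each is the last 45 bases with the stop codon, 5′ to 3′ on the plus strand, lies in exon 4 of 4 of the transcript, and was read from GRCm38 with the GENCODE M21 annotation. Capitals mark the codon of the last glycine.
Map1lc3a, chr2:155277593-155277637: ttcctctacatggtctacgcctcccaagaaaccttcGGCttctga
Map1lc3b, chr8:121596726-121596770: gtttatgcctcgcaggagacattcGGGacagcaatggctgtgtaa
Gabarap, chr11:69994480-69994524: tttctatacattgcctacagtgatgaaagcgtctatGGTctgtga
Gabarapl1, chr6:129541123-129541167: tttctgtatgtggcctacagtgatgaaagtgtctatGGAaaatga
Gabarapl2, chr8:111952361-111952405: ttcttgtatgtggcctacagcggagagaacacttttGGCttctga

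The last glycine was codon 120 in both LC3 genes and codon 116 in the 3 GABARAP genes. In Map1lc3b 5 codons followed it before the stop, whereas in the other 4 genes 1 codon did. Over their coding sequences Map1lc3a and Map1lc3b were 76.0% identical and Gabarap and Gabarapl1 74.6% identical, while an LC3 gene and a GABARAP gene shared between 51.0 and 56.0% of aligned bases. No window of 75 bases, the length of the reads, was shared between any of the 5 genes within 2 mismatches, so no stretch of read length in 1 member matches another.

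Other genes can share reads with them. Within 2 mismatches, 5.94% of the windows of Map1lc3b, 20.9% of Gabarapl1 and 18.3% of Gabarapl2 also occur elsewhere among annotated transcripts, and none of Map1lc3a or Gabarap do. For Map1lc3b the matching gene with counts was the processed pseudogene Gm6055, whose counts were between 5.31 and 15.4% of those of Map1lc3b. For Gabarapl2 these were the processed pseudogenes Gm3724, Gm6051 and Gm5829, which together held between 2.89 and 11.2% of its counts. The windows of Gabarapl1 matched 1700101I11Rik, an opposite-strand transcript overlapping it by 658 bases, which held fewer counts than any member in every sample. Zcchc14 overlaps the end of Map1lc3b by 58 bases on the opposite strand. The counting method and its use of strand are not given in the sources used here.

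All 5 genes passed the filter on low counts and were well expressed, ranking from 339 (Gabarap) to 1727 (Gabarapl2) by mean level among the 15826 genes that passed. The lowest count of any member in any sample was 490, of Gabarapl2 in mutant sample 1, where counting error is 4.52% of the value. Spread between samples was larger, with coefficients of variation from 22.6 to 35.7% among controls and from 9.39 to 33.6% among mutants. Levels are given as CPM, in which edgeR puts all libraries on the same size by their upper quartile, and differences were tested with edgeR's quasi-likelihood test over all 15826 genes. The study's threshold, an unadjusted p under 0.05 with over 1.5-fold, was used for calls.

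The sequenced material and its limits were as follows. Controls held 31060222 to 32712448 counts in total and mutants 5276557 to 11819576. Every mutant library was thus smaller than every control library, and sequencing depth and genotype cannot be told apart in these samples. Fgfr1, the targeted gene, was lower in all 3 mutant than in all 3 control samples, with a log2 fold change of -1.37 (standard error 0.40, adjusted p = 0.0881, edgeR). Corrected for transcript length and GC content as described further on, it was -0.73 (adjusted p = 0.279, edgeR) and was past the study's threshold in both. All 6 markers of dental mesenchyme and all 6 of dental epithelium had counts in every sample. The summed dental epithelium markers, led by the enamel genes Amelx and Ambn, ranged from 85069 to 120414 CPM in controls and from 31285 to 69406 CPM in mutants. Of the epithelial markers, Enam and Epcam overlapped between the genotypes, and Epcam was 35.9, 36.4 and 58.5 CPM in controls and 65.3, 58.2 and 72.2 CPM in mutants. The sum of 4 endothelial markers ranged from 131 to 221 CPM in controls and from 111 to 115 CPM in mutants, with Kdr and Emcn overlapping. The sum of 4 erythroid markers was 180 to 447 CPM in controls and 610 to 1761 CPM in mutants and was carried by the globin gene Hbb-bs, while Hbb-bt and Alas2 overlapped between the genotypes and Slc4a1 was at 0 in mutant samples 1 and 2. The 8 skeletal muscle markers reached 2602 CPM in control sample 2 and 5718 CPM in mutant sample 1 and lay between 8.57 and 934 CPM in the other samples.

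Of the 5 family members, 1 passed the study's threshold as higher and 0 as lower, against 10.9% of all tested genes as higher and 8.92% as lower. At an adjusted p under 0.05 edgeR called 0 of the 5, against 6.79% of all genes, and 1 had an unadjusted p under 0.05. DESeq2 likewise gave no member an adjusted p under 0.05, with 0.0778 as the lowest. The member that passed was Map1lc3a. All 5 fitted differences were above 0, from 0.20 for Gabarapl1 to 0.77 for Map1lc3a, with a median of 0.33 against -0.040 for all genes tested.

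Map1lc3a encodes LC3A. It had 250, 154 and 165 CPM in controls 1, 2 and 3 and 252, 404 and 317 CPM in mutants 1, 2 and 3. The groups did not overlap, but control sample 1 and mutant sample 1 were nearly level, and mutant sample 2 was the highest. The log2 fold change was 0.77 (standard error 0.30, 95% interval from 0.090 to 1.45), or 1.71-fold, with unadjusted p = 0.0311 and adjusted p = 0.190 (edgeR). All mutant samples lay above all control samples for 14.1% of the genes tested, and for 1 of the 5 members. The call depended on single samples: it was lost without control sample 2 (0.64), control sample 3 (0.68), mutant sample 2 (0.57) or mutant sample 3 (0.78), and remained without control sample 1 (1.02) or mutant sample 1 (0.91). It was also lost when libraries were scaled by total counts alone (0.53). The dental epithelium, endothelial and erythroid marker sums given above did not overlap between the genotypes either, although single markers in each list did, and their part in this difference was not tested.

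Map1lc3b encodes LC3B, the form most often followed as a protein. It had 217, 141 and 158 CPM in controls and 263, 190 and 179 CPM in mutants. Mutant sample 1 was above every control sample, while mutant samples 2 and 3 lay below control sample 1. Its log2 fold change was 0.29 (standard error 0.27, 95% interval from -0.33 to 0.92, adjusted p = 0.636, edgeR). With the counts of Gm6055 added to those of Map1lc3b, the levels were 234, 154 and 169 CPM in control and 277, 219 and 190 CPM in mutant samples, a difference of 0.31 on the log2 scale.

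Gabarap encodes the founding GABARAP protein, first found as a partner of the GABA type A receptor. It had 399, 203 and 290 CPM in controls and 344, 365 and 412 CPM in mutants. The mutant samples were close together, and the controls ranged widely, from sample 2 to sample 1, and reached above mutant samples 1 and 2. The log2 fold change was 0.33 (standard error 0.30, 95% interval from -0.35 to 1.01, adjusted p = 0.623, edgeR).

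Gabarapl1, also known as GEC1, had 127, 104 and 80.1 CPM in controls and 113, 162 and 82.3 CPM in mutants. The groups overlapped almost fully, with mutant sample 2 alone above the control range. The log2 fold change was 0.20 (standard error 0.31, 95% interval from -0.50 to 0.91, adjusted p = 0.795, edgeR), and it was -0.095 without mutant sample 2.

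Gabarapl2, also known as GATE-16, had 102, 51.6 and 65.9 CPM in controls and 107, 80.4 and 107 CPM in mutants. Mutant samples 1 and 3 were just above control sample 1, and mutant sample 2 was below it. The log2 fold change was 0.42 (standard error 0.30, 95% interval from -0.26 to 1.10, adjusted p = 0.506, edgeR). Without control sample 1, the highest control, it was 0.74 and passed the threshold. For each of the 4 genes that did not pass, the 95% interval held both 0 and changes of over 1.5-fold, so these samples do not separate no change from such a change.

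**Figure D1:**
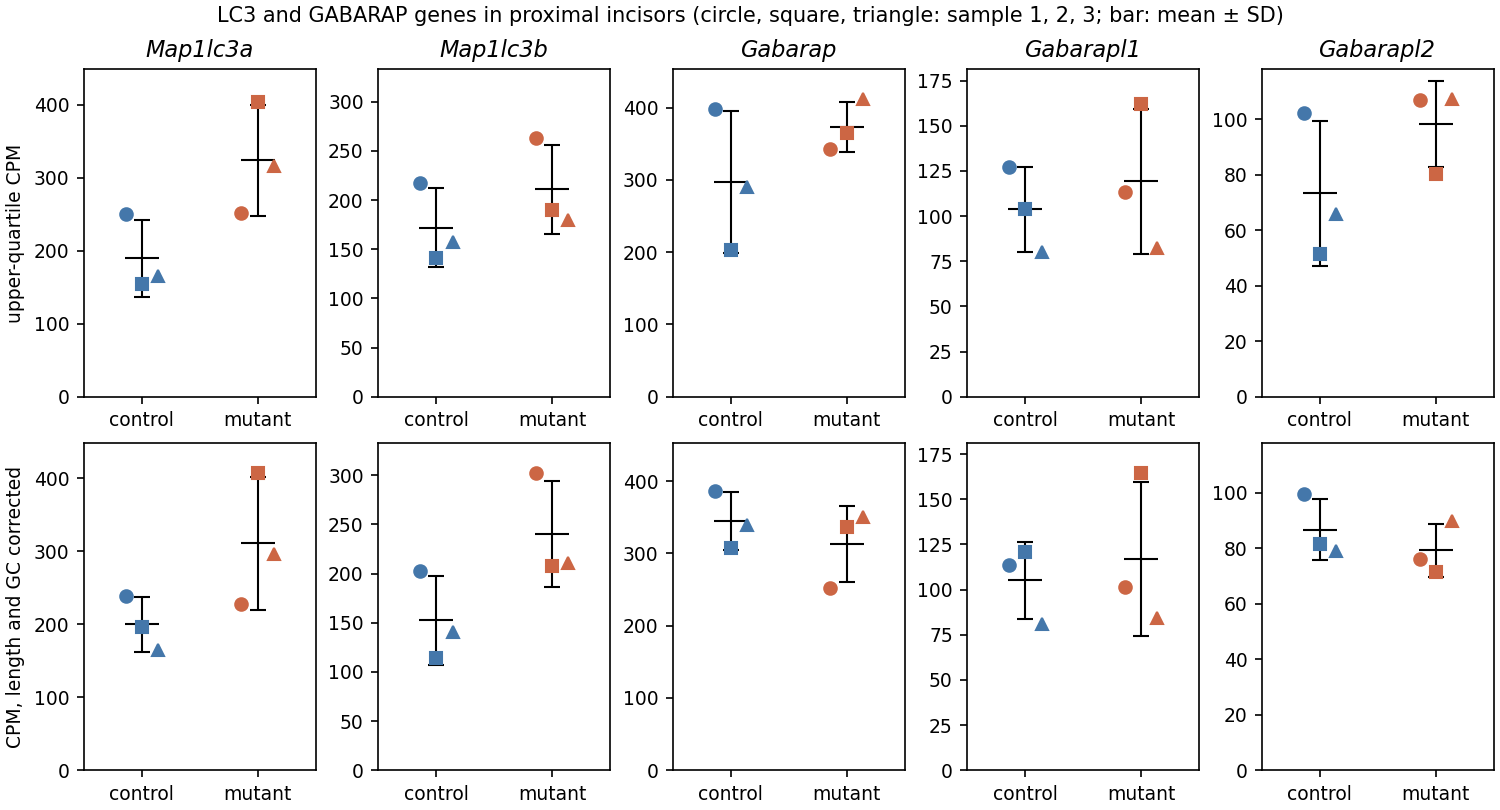
Level of each family member in CPM (linear axes from 0) in 3 control and 3 mutant incisor samples, as circles, squares and triangles for samples 1, 2 and 3, with bars for mean ± SD. The upper row shows upper-quartile CPM, where the groups are apart for Map1lc3a alone; the lower row shows CPM after the length and GC correction, where they are apart for Map1lc3b alone.

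The samples moved in part together. Control sample 1 was the highest control sample for all 5 genes, and control sample 2 was the lowest for 4 of them, with Gabarapl1 as the exception. The mutant samples had no such common order: mutant sample 2 was the highest for Map1lc3a and Gabarapl1, mutant sample 1 for Map1lc3b, and mutant sample 3 for Gabarap and Gabarapl2.

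Changes between the genotypes ran with transcript length. Over all tested protein-coding genes, the median log2 fold change was 0.93 for genes whose longest protein-coding transcript was under 1000 bases (699 genes), 0.39 between 1000 and 1500 bases (1188 genes) and 0.036 between 1500 and 2000 bases (1477 genes). It was -0.12 between 2000 and 3000 bases, -0.26 between 3000 and 5000 bases and -0.25 from 5000 bases on. The family's transcripts are short, with 1112 bases for Map1lc3a, 1351 for Gabarap, 1677 for Gabarapl2, 1820 for Gabarapl1 and 2633 for Map1lc3b. Gabarap was thus close to the median of its length class, and the other 4 members were above theirs.

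**Figure D2:**
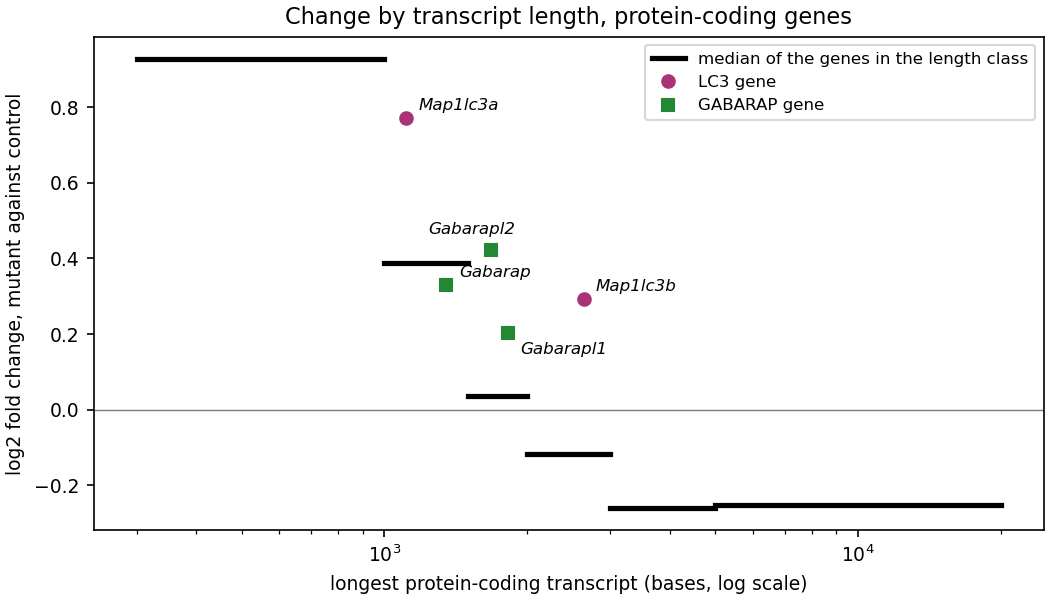
Log2 fold change (mutant against control) against the length of the longest protein-coding transcript (bases, log scale): black bars are medians of tested protein-coding genes in 6 length classes, of which the outer ones are open-ended, and points are the family members. The class medians fall from 0.93 to -0.25, with Map1lc3a at 0.77 and Map1lc3b at 0.29 above their classes and Gabarap at 0.33 near its class.

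When a smooth trend of each sample with transcript length and GC content was fitted over genes and removed, the fitted changes of both LC3 genes were above those of the 3 GABARAP genes; a difference between the subfamilies was not tested. The trend gave a difference between the genotypes of 0.60 for Gabarapl2, 0.52 for Gabarap, 0.16 for Map1lc3a, 0.058 for Gabarapl1 and -0.38 for Map1lc3b on the log2 scale. After the correction the log2 fold changes were 0.64 for Map1lc3a (unadjusted p = 0.0445, adjusted p = 0.299, edgeR) and 0.65 for Map1lc3b (unadjusted p = 0.0449, adjusted p = 0.300, edgeR). They were -0.14 for Gabarap, -0.13 for Gabarapl2 and 0.15 for Gabarapl1, none of which passed. Hence 2 of 5 members were called higher and 0 lower after the correction, where 7.46% and 7.43% of all tested genes were. With the replicate block added to the correction, Map1lc3a was no longer called (0.62, unadjusted p = 0.0603, edgeR) and 1 member, Map1lc3b, was. What produced the length trend was not tested.

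After the correction Map1lc3b had 203, 114 and 141 CPM in controls and 303, 207 and 210 CPM in mutants, so that all mutant samples were higher, as for 11.2% of all tested genes. The gap between control sample 1 and mutant sample 2 was small. Map1lc3a had 239, 196 and 165 CPM in control and 228, 408 and 297 CPM in mutant samples, and mutant sample 1 now fell within the control range. The correction narrowed some spreads and widened others. For Gabarap the SD went from 98.0 to 40.0 CPM in control samples and from 35.1 to 52.9 CPM in mutant samples. For Gabarapl2 it went from 26.2 to 11.1 and from 15.4 to 9.53 CPM in control and mutant samples. In the same order it went from 52.7 to 37.3 and from 76.1 to 90.9 CPM for Map1lc3a. It rose from 39.9 to 45.4 and from 45.6 to 54.2 CPM for Map1lc3b. For Gabarapl1 it went from 23.4 to 21.3 and from 40.0 to 42.5 CPM. Because the longest annotated transcript of Map1lc3b keeps an intron, the correction was repeated on the longest protein-coding transcript of every gene, which gave 0.62 for Map1lc3a, 0.65 for Map1lc3b, -0.10 for Gabarap, 0.19 for Gabarapl1 and -0.11 for Gabarapl2.

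**Figure D3:**
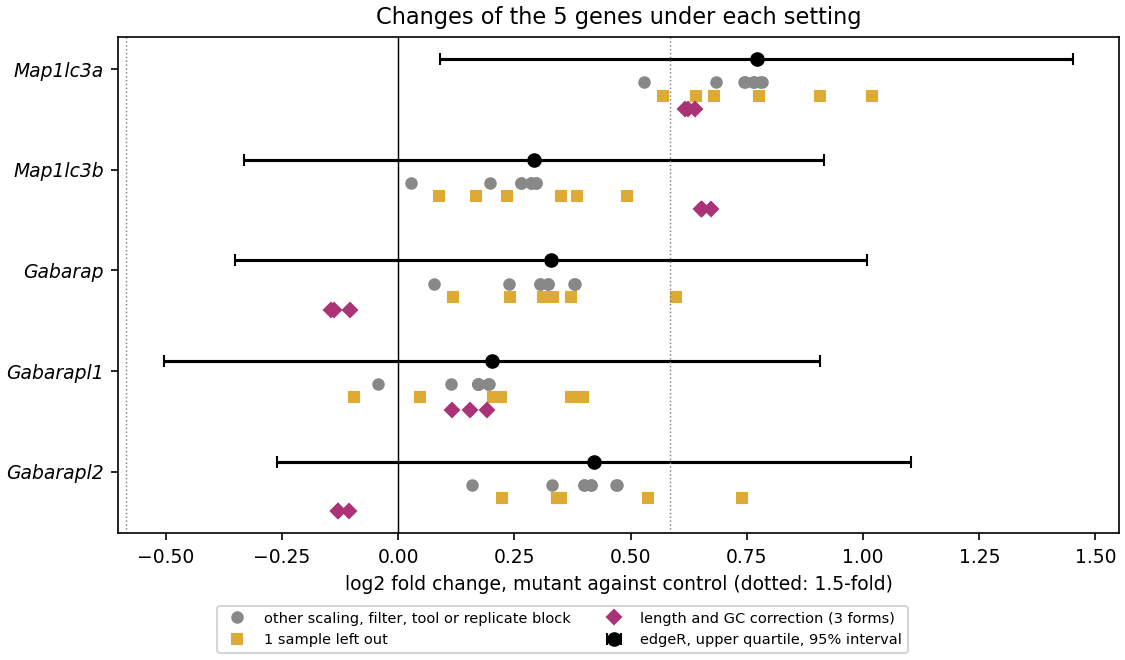
Log2 fold change (mutant against control) of the 5 genes: black circles with 95% intervals are edgeR with upper-quartile scaling, grey circles other scalings, filters, tools or the replicate block, yellow squares fits with 1 sample left out, and purple diamonds the 3 forms of the length and GC correction. The corrected values lie between 0.62 and 0.67 for the LC3 genes and between -0.14 and 0.19 for the GABARAP genes.

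Levels of the members were compared with each other per length of the mRNA linked to RefSeq. In the control samples, means were 220 ± 72.5 CPM per kb for Gabarap, 171 ± 47.4 for Map1lc3a, 67.9 ± 15.8 for Map1lc3b, 57.0 ± 12.9 for Gabarapl1 and 43.7 ± 15.6 for Gabarapl2 (SD, n = 3 each). In the mutant samples, the order began with Map1lc3a at 291 ± 68.5 and Gabarap at 276 ± 26.0 and went on with Map1lc3b at 83.2 ± 18.0, Gabarapl1 at 65.5 ± 22.0 and Gabarapl2 at 58.6 ± 9.19 CPM per kb (SD, n = 3 each). In both genotypes the ranges of Gabarap and Map1lc3a overlapped, as did those of Map1lc3b and Gabarapl1 and of Gabarapl1 and Gabarapl2, while every value of Map1lc3a was above every value of Map1lc3b. The place of Map1lc3b depended on the length: by the union of its annotated exons, which includes the retained intron, it was the lowest at 22.9 ± 5.31 in control samples (SD, n = 3).

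Shares within a sample do not depend on how libraries are scaled. Per length of the exon union, Map1lc3a made up 37.6, 39.2 and 36.2% of the family's summed level in controls and 39.7, 50.3 and 44.5% in mutants. All mutant samples were higher, by 7.18 percentage points on average (exact permutation test, two-sided, p = 0.10, the smallest that 3 samples against 3 allow), and by 4.46 points without mutant sample 2. Per length of the RefSeq-linked mRNA, its share was 30.6, 32.0 and 29.2% in control and 31.9, 43.0 and 37.0% in mutant samples, where mutant sample 1 was within the control range (difference 6.67 points, exact permutation test, p = 0.20). For the other 4 genes the groups overlapped, with differences of -3.74 points for Gabarap, -2.62 for Gabarapl1, -0.66 for Map1lc3b and -0.16 for Gabarapl2 by the exon union (exact permutation tests, p = 0.40, 0.50, 0.40 and 0.90). With 1 sample left out the difference of Gabarap ran from -5.89 to -1.47 points, and that of Gabarapl2 turned to 0.85 points without mutant sample 2.

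The LC3 genes were also set against the GABARAP genes as the log2 ratio of their summed levels per length. By the exon union it was -0.42, -0.30 and -0.49 in controls 1, 2 and 3 and -0.22, 0.23 and -0.089 in mutants 1, 2 and 3. All mutant samples were higher, and the means were -0.40 ± 0.094 and -0.026 ± 0.23 (SD, n = 3 each), a difference of 0.38. Without mutant sample 2 the difference was 0.25. The groups did not overlap under any length used: the difference was 0.34 with the longest annotated transcript, 0.31 with the RefSeq-linked mRNA and 0.23 with no division by length. After the length and GC correction it was 0.71, from a mean of -0.56 in control to 0.16 in mutant samples. As a sum over genes chosen with earlier results known, this ratio is a description, and 3 samples against 3 could not take a permutation test below 0.10.

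**Figure D4:**
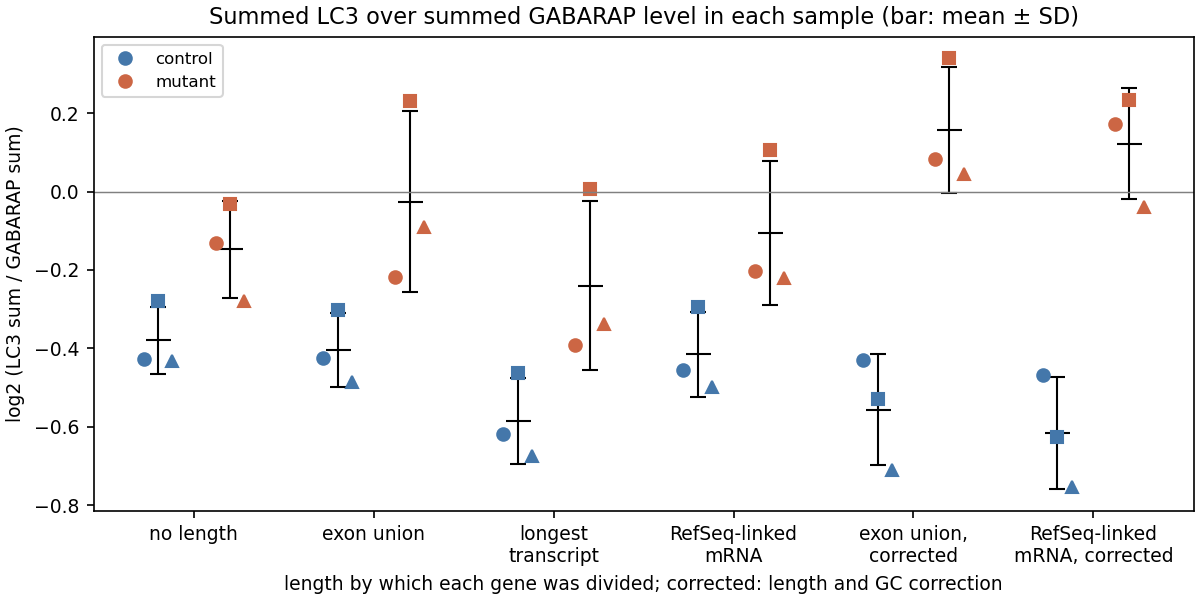
Log2 ratio of the summed LC3 genes to the summed GABARAP genes in each sample (blue control, orange mutant; circle, square and triangle for samples 1, 2 and 3; bars for mean ± SD) under 4 choices of length and 2 corrected forms. In every column the 3 mutant samples lie above the 3 control samples, by a mean of 0.23 with no division by length and of 0.71 after correction with the exon union. With no division by length, mutant sample 3 and control sample 2 are nearly level.

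Taken pair by pair, the log2 ratio of Map1lc3a to Gabarapl1 was 0.98, 0.57 and 1.04 in control and 1.15, 1.32 and 1.94 in mutant samples. It was the only 1 of the 10 pairs whose groups did not overlap (exact permutation test, p = 0.10, and 0.80 adjusted over the 10 pairs). After the length and GC correction 5 of the 10 pairs did not overlap, each with an LC3 gene higher against a GABARAP gene in the mutant samples. The 10 ratios reuse the same 5 genes, and the share of such pairs among other genes was not computed. The ratio of Map1lc3a to Map1lc3b overlapped in both forms, with corrected values of 0.24, 0.78 and 0.23 in control and -0.41, 0.98 and 0.50 in mutant samples.

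In 8 lists of 69 genes that work with the family, 68 were tested, of which 2 were higher and 12 lower in the mutant samples at the study's threshold, against 10.9% and 8.92% of all tested genes. After the length and GC correction 2 were higher and 1 lower, against 7.46% and 7.43%. Of the 68, 1 had an adjusted p under 0.05 in edgeR. The median log2 fold change over the 68 genes was -0.26. All mutant samples were below all control samples for 18 of them, where 16.3% of all tested genes were. Atg9b was not in the table.

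Of the 11 genes for the conjugation enzymes and ATG4 proteases, which act on LC3 and GABARAP directly, 0 were called in either direction. Among all tested genes 10.9% were called higher and 8.92% lower. Atg3, the enzyme that hands the family to lipid, had 27.2, 18.4 and 22.5 CPM in control and 20.7, 29.1 and 30.6 CPM in mutant samples (log2 fold change 0.24, adjusted p = 0.767, edgeR). Atg7, the activating enzyme, was even in the control samples at 31.4, 32.1 and 30.1 CPM, and spread from 18.4 to 56.7 CPM in mutants, with mutant sample 1 as the highest (log2 fold change 0.063, adjusted p = 0.963, edgeR). Atg4b, the main protease that trims LC3, had 53.1, 38.3 and 55.2 CPM in control and 19.4, 38.5 and 38.4 CPM in mutant samples (log2 fold change -0.60, adjusted p = 0.381, edgeR). The direction of Atg7 was reversed without mutant sample 1 (-0.60), and that of Atg3 after the length and GC correction (-0.56).

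In the initiation kinase complex 1 of 5 genes was lower, where 8.92% of all tested genes were. The gene was Ulk1, its kinase, with 30.8, 58.1 and 44.5 CPM in control and 15.7, 21.0 and 29.1 CPM in mutant samples (log2 fold change -1.01, adjusted p = 0.159, edgeR). Among 9 tested genes for lipid transfer to the growing membrane 5 were lower, where 8.92% of all tested genes were, and 0 were after the length and GC correction. Those with the smallest p were Atg2a, a lipid transfer protein (-1.66, adjusted p = 0.113, edgeR), and Atg9a, a lipid scramblase of the seed vesicles (-1.03, adjusted p = 0.131, edgeR). The groups of Ulk1, Atg2a and Atg9a did not overlap. Their log2 fold changes fell in size to -0.23, -0.79 and -0.41 after the length and GC correction and none was then called. Each of these calls also ended without control sample 2, those of Ulk1 and Atg9a also without control sample 3 or mutant sample 2.

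Proteins that bind LC3 or GABARAP through a short LC3-interacting region (LIR) gave 1 higher and 6 lower of 20 genes, against 10.9% and 8.92% of all tested genes, and 0 higher and 1 lower after the length and GC correction. Ncoa4, the receptor that delivers ferritin to autophagosomes, had 93.2, 88.1 and 79.0 CPM in controls and 42.3, 47.9 and 51.3 CPM in mutants. The groups were widely apart and each of them was narrow. Its log2 fold change of -0.88 (standard error 0.21, adjusted p = 0.0482, edgeR) was -0.85 after the length and GC correction and was past the study's threshold in all 17 alternatives, whose adjusted p ran from 0.00758 to 0.192. Tex264, a receptor for the endoplasmic reticulum, was also called lower (-0.74, adjusted p = 0.174, edgeR). After the correction Tex264 was at -0.35 and no longer called. Fundc1, a receptor on mitochondria, was called higher (0.93, adjusted p = 0.204, edgeR), with mutant sample 1 inside the control range, and was at 0.014 after the correction. Sqstm1, which encodes p62, had 205, 198 and 153 CPM in control and 160, 161 and 122 CPM in mutant samples (-0.33, adjusted p = 0.525, edgeR). The call of Tex264 ended without control sample 1, control sample 3 or mutant sample 1, and that of Fundc1 without control sample 2, control sample 3, mutant sample 2 or mutant sample 3.

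Among 6 genes for fusion of autophagosomes with lysosomes 1 was higher, where 10.9% of all tested genes were. The called gene was Vamp8, a SNARE protein of the lysosomal side, with 99.7, 49.4 and 80.0 CPM in control and 161, 124 and 109 CPM in mutant samples. Its log2 fold change was 0.78 (adjusted p = 0.201, edgeR) and remained at 0.80 after the length and GC correction. It was not called with edgeR's TMM or total counts, or without control sample 2, control sample 3, mutant sample 1 or mutant sample 2. The remaining lists had 0 calls before the correction. They held 8 genes of the phosphatidylinositol 3-kinase complex and 3 MAP1 genes, whose microtubule proteins gave LC3 its name. The last held 6 genes for the MiT/TFE and FOXO transcription factors, which drive autophagy genes. Of the 3 MAP1 genes 1 was called higher after the length and GC correction, where 7.46% of all tested genes were. Before the correction the log2 fold changes of all 3 were below 0, with a median of -0.27. After the correction the median over the 68 genes was -0.11.

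**Figure D5:**
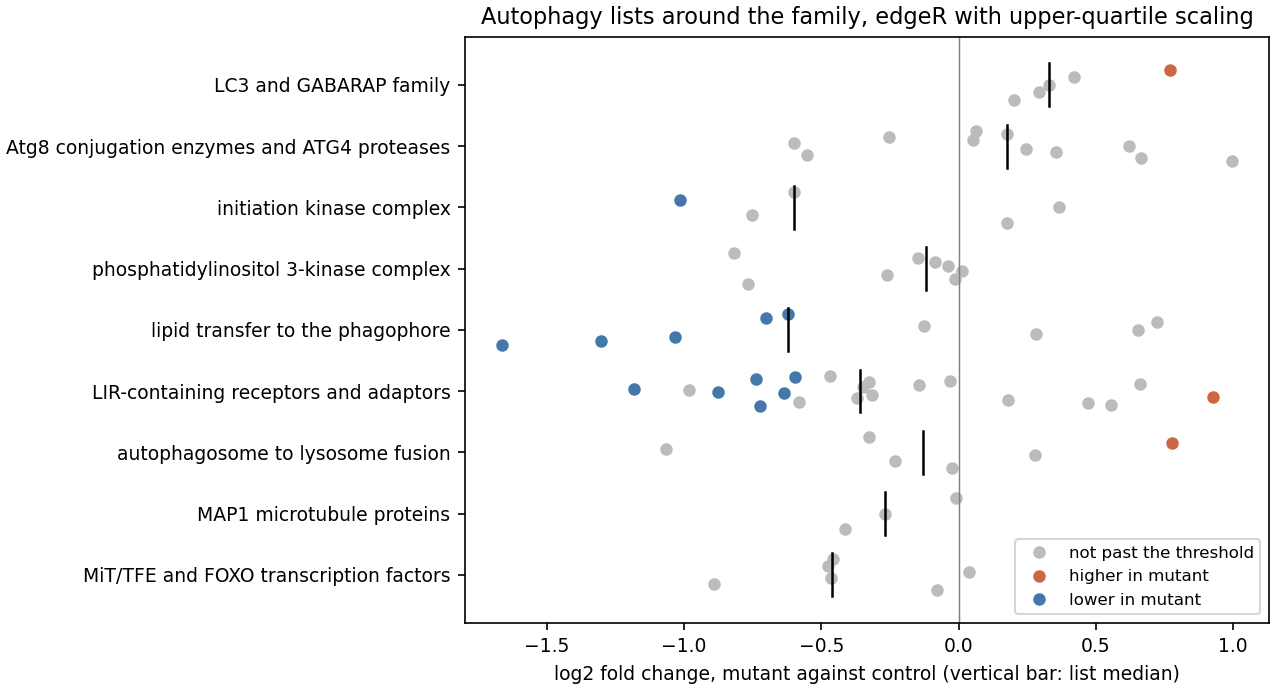
Log2 fold change (mutant against control, edgeR with upper-quartile scaling) of each gene in the family and in 8 lists around it, with vertical bars for list medians, orange for genes called higher, blue for lower and grey for the rest. The family's median is 0.33, and 12 of the 68 list genes are lower, of which 5 are for lipid transfer and 6 are LIR-containing.

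Promoters were read from RefSeq for 4 members, without an entry for Map1lc3a. Neither CACGTG, the E-box bound by MiT/TFE factors, nor TGTTTAC, a FOXO site, occurred on either strand of these 4, where 7.15% and 3.65% of 32851 promoters of the same length hold them.

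Other genes whose levels ran most closely with each member over the 6 samples are given as a description only, out of 9321 protein-coding genes averaging at least 10 CPM. By Pearson's r of log2(CPM + 1), these were Rfk (0.997) and Hebp2 (0.991) for Map1lc3a, Psme1 (0.991) and Echs1 (0.983) for Map1lc3b, and Sdhaf2 (0.990) and Sdf2 (0.983) for Gabarap. They were Tceal3 (0.979) and Ppp2r2b (0.962) for Gabarapl1, and Ptp4a2 (0.993) and Mettl26 (0.993) for Gabarapl2. Each r rests on only 6 samples, whose library sizes differ between the genotypes. Between 0.290 and 2.38% of the compared genes had an r over 0.9 with a given member.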

How the data were processed

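Per the paper's methods, RNA from the proximal incisor was sequenced as single reads of 75 bases, trimmed and aligned to mm10 in Partek Flow. The submitters' processing notes also name TopHat2 2.0.8. The authors deposited estimated counts per gene with no normalization, and the counting model is not given in the sources used here. Their second table holds their own comparison (p-values and fold changes) and was not used. The members and gene lists were chosen with earlier results of these data known.

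Counts were rounded and tested with edgeR 4.0.16 in R 4.3.3 (upper-quartile scaling, minimum count 10 and total 15, genotype as the only term, two-sided quasi-likelihood test, Benjamini-Hochberg adjustment). Standard errors were approximated from the log2 fold change and F. DESeq2 1.42.0, limma 3.58.1, TMM, total counts, other filters, the replicate block and each sample left out were alternatives. The length and GC correction used smooth terms from mgcv 1.9.3, fitted per sample on protein-coding genes averaging at least 50 counts. Its form on coding transcripts and the RefSeq-linked mRNA length were added after seeing the data. Scripts were tested on simulated counts. Positions, lengths and sequences were taken from the GENCODE M21 annotation of GRCm38 (204 symbols found no match and 219 matched by a synonym). A count of 0 allows up to 3 counts, from 0.0825 CPM in control sample 2 to 0.655 CPM in mutant sample 1, for counting error only. Nothing says whether samples pooled mice, so p-values measure the spread between these samples. Genes named are the 5 members, Fgfr1, Atg3, Atg7, Atg4b, Sqstm1 and Ulk1, in each list the 2 genes with the smallest p among those called higher and the 2 among those called lower, 2 genes most like each member, and matching pseudogenes. Of the cell type markers, 2 are not reported here and were left out of the sums.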

Additional observations from a re-analysis of the deposited data

Results flagged for a closer look

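Processed pseudogenes of the family, which were not tested between the genotypes, had levels above every control sample in 1 mutant sample each. The share of all genes that do so was not computed. In the order below, the levels in these mutant samples rest on 75, 54, 34 and 343 counts. Gm6051, a copy of Gabarapl2, had 6.40 CPM in mutant sample 2 and at most 0.0825 CPM in the control samples. Gm5829, another copy of Gabarapl2, had 11.8 CPM in mutant sample 1 and at most 1.60 CPM in the control samples, and 0 in mutant samples 2 and 3. Gm3724, the third copy, had 3.43 CPM in mutant sample 3, against at most 2.48 CPM in the control samples, and 0 in mutant sample 1. Gm6055, a copy of Map1lc3b, had 29.3 CPM in mutant sample 2, against at most 16.6 CPM in the control samples. Whether these are transcripts of the copies or reads of the parent genes was not tested.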

How the results depend on the processing

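Map1lc3a was above 0 in all 17 alternatives, with adjusted p from 0.0778 to 0.526. It was called in 11 of the 17. The call was lost with total counts (0.53) and with the length and GC correction and replicate block together (0.62). It was also lost without control sample 2, control sample 3, mutant sample 2 or mutant sample 3. Map1lc3b was called after the correction on the longest transcript (0.65), the same with the replicate block (0.67), and on coding transcripts (0.65). These 3 forms reversed Gabarap (-0.14, -0.14 and -0.10) and Gabarapl2 (-0.13, -0.13 and -0.11), and total counts reversed Gabarapl1 (-0.043). With 1 sample left out, log2 fold changes ran from 0.57 to 1.02 for Map1lc3a, from 0.087 to 0.49 for Map1lc3b, from 0.12 to 0.60 for Gabarap, from -0.095 to 0.40 for Gabarapl1 and from 0.22 to 0.74 for Gabarapl2. The count of members called higher was 0 with total counts, 2 with the correction on either transcript, and from 0 to 2 with 1 sample left out. It was 1 with the correction and block together, and that gene was Map1lc3b. With total counts the median over all genes was -0.30, against -0.040.

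Deviations of same-numbered samples had r of 0.047, 0.0094 and 0.055, low values but each the highest for its number. They do not settle whether the replicate numbers pair the samples. The paper's methods mention pairs of samples without describing the pairing. With the replicate block the log2 fold changes were 0.78 for Map1lc3a, still called, and 5 genes of the lists were higher.

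The count of all genes past the threshold was 3137, 4733 without the filter on low counts, 1734 with the correction and block, and from 2006 to 4732 with 1 sample left out. List genes called higher numbered 0 with TMM, 0 with total counts, 1 with the correction and block, and from 0 to 4 with 1 sample left out. Those called lower numbered 20 with total counts, 1 with each form of the correction, and from 2 to 9 with 1 sample left out. Fundc1 was reversed with the correction and block (-0.075) and on coding transcripts (-0.012). Atg3 was reversed with total counts (-0.0081) and the 3 forms of the correction (-0.56, -0.60 and -0.13), and Atg7 with TMM (-0.041), total counts (-0.22), limma-trend (-0.11), the replicate block (-0.11) and without mutant replicate 1 (-0.60, the lowest of the fits without 1 sample, of which the highest was 0.34). The cause was not tested.

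With 1 sample left out, the difference in share ran from 4.46 to 9.73 points for Map1lc3a, from -1.56 to -0.16 for Map1lc3b, from -5.89 to -1.47 for Gabarap, from -3.68 to -1.04 for Gabarapl1 and from -0.89 to 0.85 for Gabarapl2, and that of the LC3 to GABARAP ratio from 0.25 to 0.47. The share of Map1lc3b changed by -1.88 points with no division by length, 1.72 after the correction and 1.63 on coding transcripts. After the correction on either transcript, the share of Gabarap changed by -9.58 and -9.03 points, that of Gabarapl2 by -1.73 and -1.64 points, and the LC3 to GABARAP ratio by 0.71 and 0.66. At 5276557 counts, mutant sample 1 was the shallowest.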
